A study of Mus musculus with 12 samples.

Results

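The tripartite motif (TRIM) genes were followed through RNA sequencing of Myc-CaP cells, a mouse prostate cancer line of the FVB/NJ strain. Of the 55216 gene symbols in the count table, 68 carried a TRIM name followed by a number, and 35 of these reached at least 10 counts in at least 2 of the 12 libraries and were taken as the family members. The libraries fell into 6 groups of 2, all harvested at 48 h, and the shared cell line means that no second line or animal stands behind any value. Ctrl cells were untreated, IFN200 and IFN2000 cells received interferon gamma (IFNγ) at 200 pg or 2000 pg, Oxali cells received oxaliplatin at 2 μM, and Combo200 and Combo2000 cells received 2 μM oxaliplatin together with 200 pg or 2000 pg IFNγ. The labels give no volume for these amounts.

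TRIM proteins share a RING finger, one or more B-box zinc fingers and a coiled coil. Most of them are E3 ubiquitin ligases, which pass ubiquitin from a conjugating enzyme to a chosen substrate, and the domain at the C-terminal end usually sets that choice. Many members act in antiviral defence and are induced by interferons. Others serve in chromatin silencing, on the cytoskeleton or in muscle. Oxaliplatin is a platinum drug that forms DNA adducts, and IFNγ signals through its receptor and JAK kinases.

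Library totals ran from 18749975 to 25931516 counts, and 13177 genes passed the filter on low counts. Groups follow the sample titles, because the agent label disagreed with the title for 6 libraries given a single treatment. A list of 10 p53 target genes lay 0.455 to 0.483 above Ctrl, as a mean log2 ratio, in each of the 6 libraries titled with oxaliplatin, and between -0.0463 and 0.0465 in those titled with IFNγ alone. That list separates libraries with and without the drug. It cannot tell the IFNγ doses apart, so the dose of each library rests on its title. Among luminal epithelial markers, Krt8 (353 to 628 counts) was read in every library, Krt18 and Cdh1 had at most 6 counts, and Epcam was at 0 throughout. A pair of libraries held reads of other cells. IFN2000 replicate 2 had 64 counts of Ptprc and 33 of Cd4, and its 8 T cell markers summed to 6.034 CPM (counts scaled by library size) against 0.3533 to 2.441 elsewhere. In IFN200 replicate 1 the 10 heart and skeletal muscle markers summed to 11.15 CPM, with 63 counts of Actc1, and results resting on either library are given below without it as well.

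The family spanned a wide range of levels. Per kilobase of exon, 10 members stood above 10 CPM in Ctrl cells, 8 stood below 1, and the median member stood at 4.61. Trim28, the KAP1 corepressor recruited by KRAB zinc finger proteins, was highest at 197 CPM per kilobase, followed by Trim59, a membrane-anchored member, at 37.9 and Trim37, a ligase of centrosomes and peroxisomes, at 28.02. Trim28 alone supplied 38.5% to 38.8% of the members' summed CPM in the Ctrl libraries and 27.4% to 28.9% in the Oxali libraries. The members together took 0.202% to 0.204% of all counts in Ctrl and 0.219% to 0.223% in Oxali. At the low end stood Trim36, Trim63, Trim12c and Trim62, each with at most 13 counts in either Ctrl library. Trim62 was the 1 member that did not pass the filter, with 1 to 4 counts in 10 libraries and 11 and 10 in the Combo200 libraries, so that 34 members were tested. With no filter the log2 change of Trim62 in Combo200 was 2.35 against Ctrl and 2.23 against IFN200. Only the Combo200 libraries took Trim62 past the count rule, so a test of them repeats that choice and no p-value is given.

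**Figure D1:**
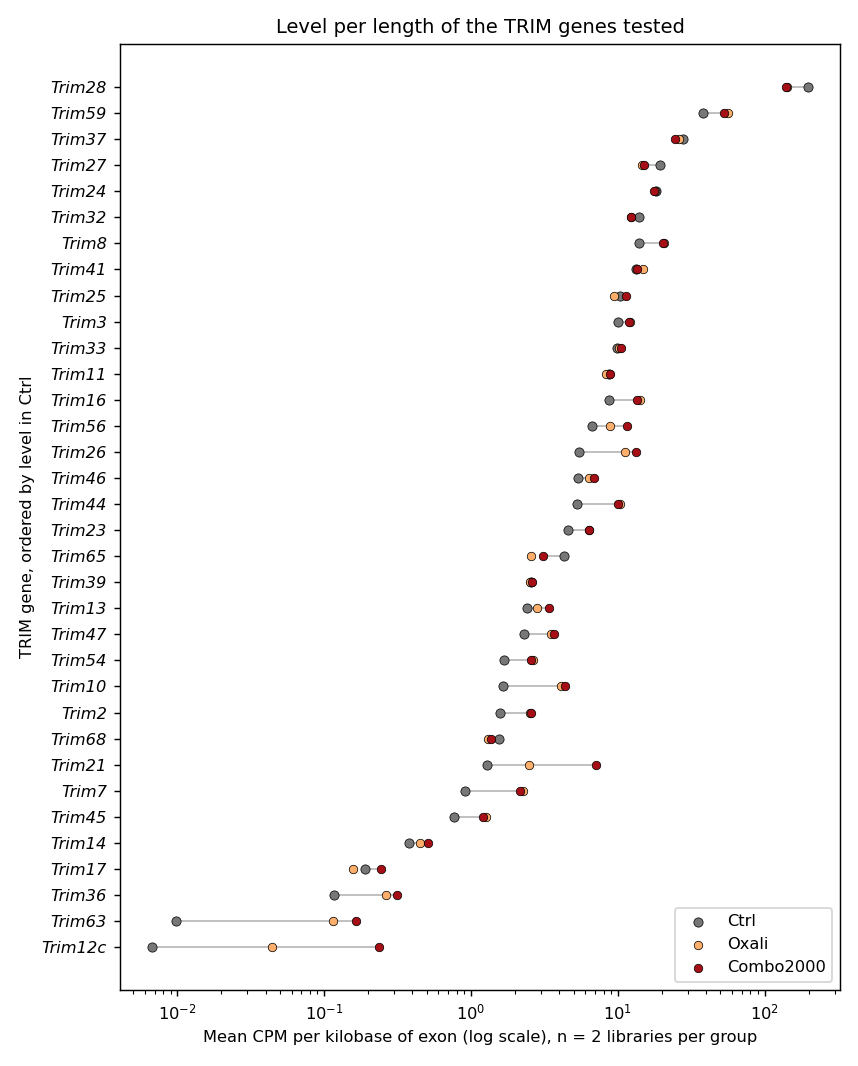
Mean CPM per kilobase of exon, on a log axis, for the 34 TRIM genes tested, ordered by their Ctrl level, with grey, orange and dark red points for Ctrl, Oxali and Combo2000 (2 libraries each). Trim28 lies furthest right, at 197 in Ctrl, and moves left with oxaliplatin, whereas Trim21 moves right from 1.28 in Ctrl.

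The 33 TRIM symbols below the count rule were near silent. In all libraries 12 of them were at 0, and 6 exceeded 3 counts somewhere. The highest value was 18 counts of Trim35, in IFN2000 replicate 2, the library with T cell reads. Of the 16 genes on an interferon-linked TRIM list, 10 fell below the rule, among them Trim30a, Trim34a, Trim38 and Trim12a, and no library held more than 6 counts of any of these. Trim30a, a mouse member induced in immune cells, was at 0 in the Ctrl and IFN200 libraries and at 3 and 5 counts in the Combo2000 libraries. None of the 33 symbols was tested. Trim35 was at 0 in both Ctrl libraries and at 3 to 7 counts in the 6 libraries with oxaliplatin.

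Oxaliplatin alone changed most of the family, as it did most of all genes tested, with 73.5% of the members called. Against Ctrl, 25 of the 34 members passed the test, 19 higher and 6 lower, where 67.6% of all genes tested passed, 34.8% higher and 32.8% lower. The median member had a log2 fold change of 0.34, and the median of all genes was 0.02. In bulk RNA, fewer cells of a kind and less RNA per cell cannot be told apart. Each p-value here measures the spread between the libraries of a group, which the labels do not describe as separate cultures.

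**Figure D2:**
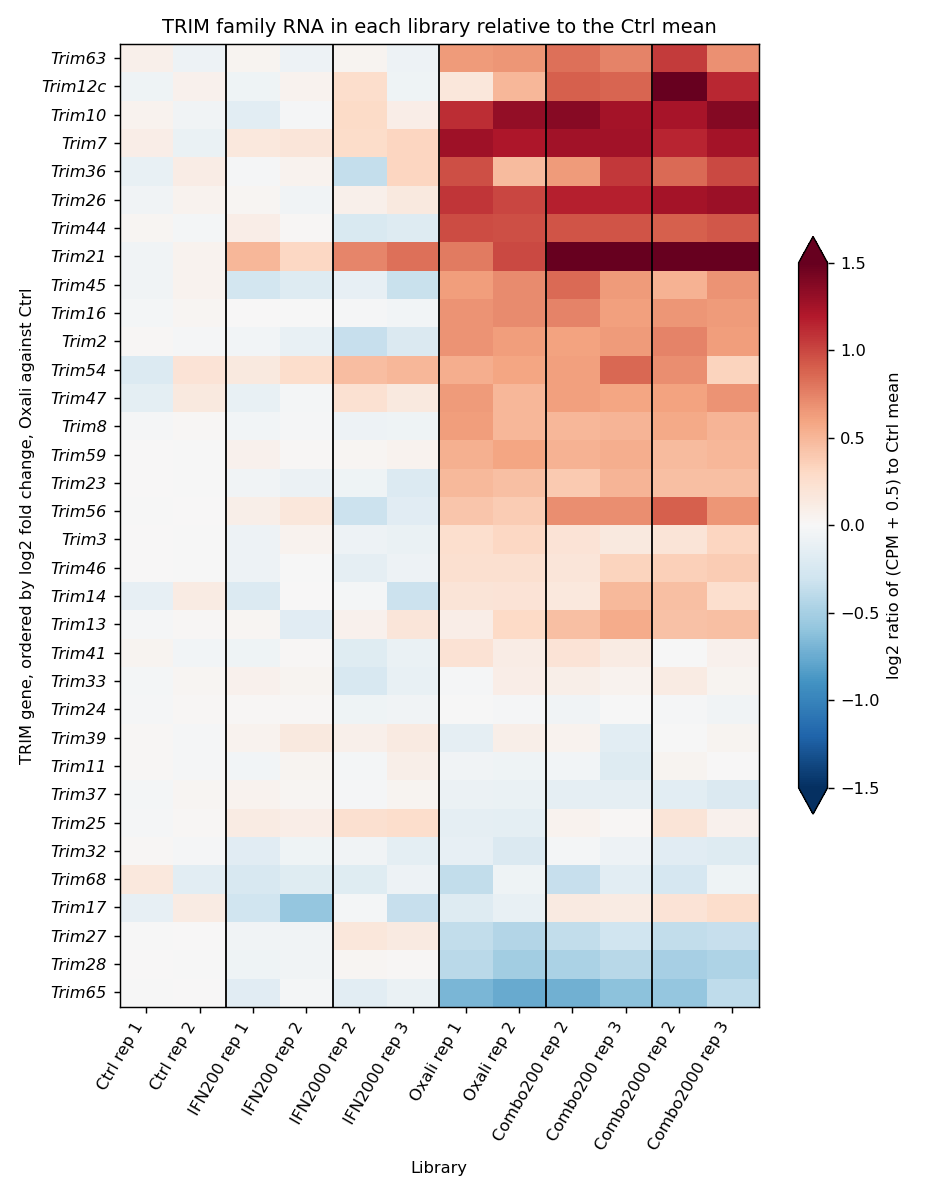
Log2 ratio of CPM + 0.5 to the Ctrl mean for the 34 TRIM genes tested (vertical axis, ordered by the change with oxaliplatin) in each of the 12 libraries (horizontal axis). Red is higher and blue lower than Ctrl, with colours capped at 1.5, and the main step lies between the 6 libraries without and the 6 with oxaliplatin.

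Trim10, a member expressed in maturing red cells, read 3.84 and 3.55 CPM in Ctrl and 8.52 and 9.92 CPM in Oxali. Its log2 fold change was 1.32 (SE 0.14), with an adjusted p of 6.07e-08 by edgeR's quasi-likelihood test with Benjamini-Hochberg adjustment, the test behind every call below. Trim7, whose protein binds glycogenin, had 7.45 and 6.43 CPM in Ctrl and 17.5 and 16.7 CPM in Oxali, a log2 change of 1.31 (SE 0.10). For both genes every Oxali library lay above every Ctrl library, at more than 2-fold. Trim26, an H2 region member studied for its part in interferon beta induction, rose from 36.0 and 39.0 CPM to 79.3 and 75.6 CPM (log2 1.05, SE 0.05, edgeR adjusted p = 8.9e-13). Trim44, which has a zinc finger of deubiquitinases in place of a RING, rose from 30.19 and 29.07 to 58.97 and 58.22 CPM (log2 0.98, SE 0.05). The libraries of these 2 members were tightly grouped, with no overlap between treatments. Trim36, a microtubule-associated ligase, had 9 and 13 counts in Ctrl and 35 and 21 counts in Oxali (log2 1.16, SE 0.40, edgeR adjusted p = 0.0148), and its call was lost without Ctrl replicate 1 or Oxali replicate 1.

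Trim63 and Trim54 encode muscle ring finger proteins, known from muscle wasting and the sarcomere. Trim63 had 1 and 0 counts in Ctrl and 7 and 7 with oxaliplatin. Combo200 held 10 and 10 counts of it and Combo2000 held 16 and 8. Only combination libraries took Trim63 past the count rule, so its higher counts there repeat that choice. In Oxali alone Trim63 was called higher than in Ctrl, at least 2.06-fold above a floor of 3 counts per Ctrl library. The call was lost without Ctrl replicate 2. Trim54 rose from 2.00 and 2.84 CPM in Ctrl to 3.73 and 3.86 CPM in Oxali (log2 0.64, SE 0.20), a call that was lost without Ctrl replicate 1. The 10 heart and skeletal muscle markers summed to 1.168 and 1.266 CPM in Ctrl and 5.913 and 7.089 CPM in Oxali, with 7 of them at 0 in each Ctrl library and 4 or 5 at 0 in the Oxali libraries. Tnnt2 made up most of each sum, rising from 15 and 21 counts (Ctrl) to 125 and 87 (Oxali). Myh6, Myh7 and Acta1 were also higher with the drug, at 4 to 15 counts per Oxali library. Actc1, Tnni3, Myl2 and Ckm stayed at 0 there. The part of these markers in the Trim63 and Trim54 values was not tested.

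The other members called higher with oxaliplatin had log2 changes between 0.17 for Trim41 and 0.95 for Trim21. The Trim41 call was lost under DESeq2 and without Ctrl replicate 2 or Oxali replicate 1. Trim16, active in the clearance of damaged lysosomes, read 38.8 and 40.4 CPM in Ctrl and 63.7 and 65.2 CPM in Oxali (log2 0.70, SE 0.05). Trim2, a neurofilament ligase, read 31.6 and 31.0 CPM, then 50.4 and 48.7 CPM (log2 0.66, SE 0.06). The abundant Trim59 went from 128 and 126 CPM to 185 and 191 CPM (log2 0.56, SE 0.04), second only to Trim28 per kilobase in Ctrl. Trim8, which binds SOCS1, rose by 0.57 (SE 0.05) and Trim23, a member with an ARF-like GTPase domain, by 0.48 (SE 0.06). Trim45, linked to MAP kinase signalling, went from 4.39 and 4.76 CPM to 7.37 and 7.82 CPM (log2 0.73, SE 0.14). All 19 members called higher had both Oxali libraries above both Ctrl libraries, which adds little to calls made from the same libraries. Of the 9 members not called, 4 were also without overlap, and the share over all genes was not taken.

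Falls were fewer and smaller. Trim65, a ligase of the RNA sensor MDA5, went from 25.2 and 25.6 CPM in Ctrl to 15.6 and 14.8 CPM in Oxali (log2 -0.74, SE 0.08, edgeR adjusted p = 1.36e-07). Trim28 fell from 819 and 817 CPM to 618 and 569 CPM (log2 -0.46, SE 0.04). Trim27, a nuclear corepressor also known as the RET finger protein, fell from 106 and 106 CPM to 82.2 and 77.8 CPM (log2 -0.41, SE 0.04). These 3 members were lower in both Oxali libraries than in either Ctrl library, and they were called under every alternative setting run. The other 3, Trim32 (-0.17), Trim25 (-0.14) and Trim37 (-0.09), were called with smaller log2 changes, and none of the 3 was called under upper-quartile scaling or DESeq2.

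Low-dose IFNγ by itself gave no call in the family. In IFN200 against Ctrl 0 of 34 members passed, where 0.114% of all genes did, and 4 members had an unadjusted p under 0.05 by edgeR. DESeq2 and every other setting likewise called 0 members, also without IFN200 replicate 1. Trim21 had the highest log2 change, 0.44 (SE 0.14), at an adjusted p of 0.54 by edgeR's quasi-likelihood test.

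High-dose IFNγ moved 8 of 34 members, 4 higher and 4 lower, against 16.9% of all genes tested, 8.39% higher and 8.47% lower. Higher were Trim21, Trim7, Trim25 and Trim27, and lower were Trim2, Trim56, Trim44 and Trim33. The median member had a log2 change of -0.05. Trim21, the cytosolic antibody receptor that marks coated virus for the proteasome, went from 4.56 and 4.96 CPM in Ctrl to 8.26 and 8.79 CPM in IFN2000 (log2 0.84, SE 0.13, edgeR adjusted p = 2.51e-04). Trim25, a ligase that ubiquitinates the RNA sensor RIG-I, went from 58.99 and 60.02 CPM to 70.1 and 71.5 CPM (log2 0.25, SE 0.05, edgeR adjusted p = 0.00134). Both were higher in each IFN2000 library than in either Ctrl library. They were also the only members still called when IFN2000 replicate 2 or Ctrl replicate 1 was left out, which brought the count from 8 to 2.

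The remaining 6 calls in IFN2000 were small, between -0.28 for Trim2 and 0.32 for Trim7. Trim56, a ligase tied to STING and double-stranded RNA signalling, had 62.0 and 62.6 CPM in Ctrl and 49.6 and 55.1 CPM in IFN2000, lower in both (log2 -0.25, SE 0.07, edgeR adjusted p = 0.015). Trim2, Trim56 and Trim33 are long by exon, with 19751, 9281 and 9805 bases in the union of exons over all their transcripts. Transcript length, here and below, means this union. The log2 deviation of a gene from the Ctrl mean ran against its transcript length in the IFN2000 libraries, with Spearman values of -0.304 and -0.164 across 13043 genes, which are not independent replicates, compared with -0.0134 to 0.145 in the others. With an offset for transcript length Trim56 was lower by a log2 value of -0.17 (edgeR adjusted p = 0.0479), and Trim2 and Trim33 were no longer called. Trim26 gained a call with that offset.

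Adding IFNγ to oxaliplatin raised a small set of members. Combo200 exceeded Oxali for 2 of 34 members, Trim21 and Trim56, where 1.83% of all genes were called, 1.58% higher. Combo2000 exceeded Oxali for 5 of 34, namely Trim12c, Trim21, Trim56, Trim25 and Trim26, where 4.36% of all genes were called, 3.37% higher and 0.987% lower. All 5 belong to the 6 interferon-linked members, the sixth being Trim14. That list was drawn up with earlier results of these libraries known. Trim12c is also a member only through the combination libraries.

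Among the 5, Trim21 had the highest log2 change against Oxali after the low-count Trim12c. It read 8.52 and 9.97 CPM in Oxali, 16.6 and 17.1 CPM in Combo200 and 24.9 and 27.7 CPM in Combo2000. Against Oxali the log2 changes were 0.87 (SE 0.10, edgeR adjusted p = 6.36e-06) and 1.51 (SE 0.09, edgeR adjusted p = 1.74e-10). Combo2000 stood 5.49-fold above Ctrl. No library of one treatment overlapped another among Ctrl, Oxali, Combo200 and Combo2000, and these Trim21 calls held under every setting run.

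Trim56 read 83.3 and 81.3 CPM in Oxali, 102 and 102 CPM in Combo200, and 116 and 98.7 CPM in Combo2000. Its log2 change against Oxali was 0.30 (SE 0.06, edgeR adjusted p = 0.00644) at the low dose and 0.39 (SE 0.06, edgeR adjusted p = 2.26e-04) at the high dose. Both combinations lay above Oxali without overlap, while the Combo2000 libraries straddled those of Combo200. The low-dose call was lost without Oxali replicate 2 or either Combo200 library.

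Trim26 read 84.4 and 84.8 CPM in Combo200 and 89.9 and 91.6 CPM in Combo2000, above both Oxali libraries in each case. Only the Combo2000 difference from Oxali was called (log2 0.23, SE 0.04, edgeR adjusted p = 0.00297), and it was lost without Oxali replicate 2 (0.20, edgeR adjusted p = 0.0768). IFN2000 without the drug left Trim26 at 39.4 and 41.5 CPM, uncalled against Ctrl except with the transcript length offset.

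Trim25 took a course of its own among the 5. Oxaliplatin put it at 54.2 and 53.5 CPM, below both Ctrl libraries, and Combo2000 at 68.1 and 62.1 CPM, between Ctrl and IFN2000. Combo2000 was above Oxali by a log2 value of 0.28 (SE 0.05, edgeR adjusted p = 7.8e-04), and it was below IFN2000 by -0.12 (edgeR adjusted p = 0.0246), a call that was lost in 4 of 12 settings, among them without Combo2000 replicate 3. Its call against Ctrl (log2 0.13, SE 0.05) was lost in 5 of 12.

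Trim12c, a mouse relative of the retroviral restriction factor TRIM5, was near the limit of counting. Ctrl held 0 and 1 counts, IFN200 likewise 0 and 1, IFN2000 3 and 0, and Oxali 2 and 5. Combo200 held 11 and 12 counts, and Combo2000 held 30 and 15. Combo2000 was above Oxali by a log2 value of 2.41 (edgeR adjusted p = 0.0138) and at least 5.51-fold above Ctrl, taking a floor of 3 counts per Ctrl library. Every combination library exceeded every other library, but only these libraries took Trim12c past the count rule. Its rise there repeats that choice and is no separate support. Of its 50-base words 32.3% also occur in transcripts of other genes, mostly Trim5, so its counts are uncertain, although Trim5 itself had at most 3 counts. The call against Oxali was lost in 4 of 11 settings, under DESeq2 (adjusted p = 0.193), with the replicate block (edgeR adjusted p = 0.125), and without Oxali replicate 1 or Combo2000 replicate 2.

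**Figure D3:**
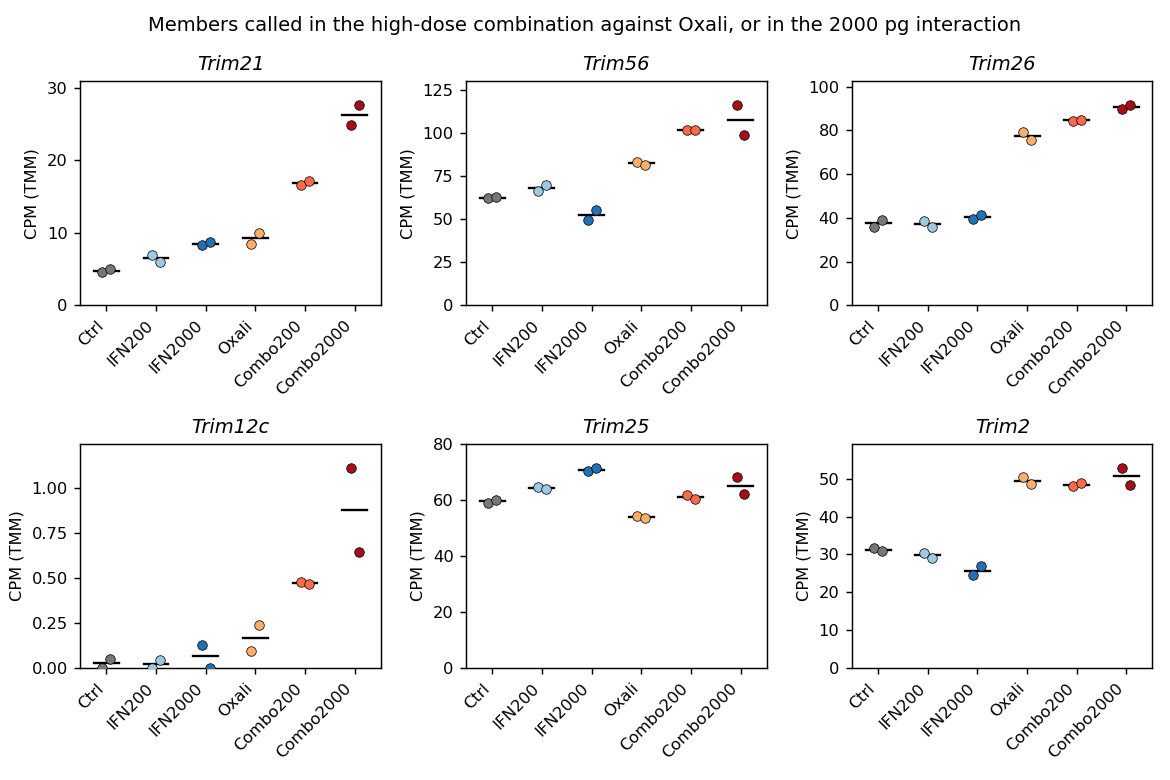
CPM (vertical axes from 0) of Trim21, Trim56, Trim26, Trim12c, Trim25 and Trim2 in the 6 groups, with a point for each library and a line at the mean of 2. Trim21 climbs to 24.9 and 27.7 CPM in Combo2000, Trim56 dips in IFN2000 and Trim25 dips in Oxali.

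The same 5 genes were the members called in Combo2000 against each of Ctrl, Oxali and IFN2000, that is 14.7% of the 34 members beside 3.73% of all genes tested. The share includes Trim12c, which met the count rule only through the combination libraries, so its place among the 5 is not independent of that rule. Trim12c, Trim21, Trim26 and Trim56 stood above all 3 comparison groups, and Trim25 stood between them. At the low dose Trim21 and Trim56 met the same condition, 5.88% of the members beside 1.65% of all genes. Trim14, a mitochondrial adaptor without a RING, was higher in the combination than in IFNγ alone at both doses (log2 0.55 and 0.67, SE 0.23 each, edgeR adjusted p = 0.0402 and 0.0148), and it was not called against Oxali. The low-dose call was lost in 5 of 11 settings, among them DESeq2 (adjusted p = 0.162), the replicate block (edgeR adjusted p = 0.139) and leaving out IFN200 replicate 1, the library with muscle reads (log2 0.42, edgeR adjusted p = 0.211). The high-dose call was lost in 3 of 11, with an adjusted p of 0.0854 under DESeq2, and without IFN2000 replicate 3 or Combo2000 replicate 2. Its Ctrl libraries held 26 and 36 counts, and it shares 1356 exon bases with Nans on the opposite strand, whose mean was 2044.5 counts; whether strand was used in the counting is not stated.

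Whether IFNγ acted differently in the presence of the drug was tested by the interaction on the log2 scale, the change from Oxali to combination minus the change from Ctrl to IFNγ. At 200 pg 0 of 34 members passed, where 0.698% of all genes did. By edgeR 4 members had an unadjusted p under 0.05, and DESeq2 called 0. At 2000 pg 3 of 34 passed, all positive, where 2.72% of all genes did, 2.12% positive and 0.6% negative. Trim56 had an interaction of 0.64 (SE 0.09, edgeR adjusted p = 2.94e-04). IFN2000 lay below Ctrl for this gene and Combo2000 lay above Oxali. Its interaction was called under all 16 alternative settings, between 0.51 and 0.75, and was 0.56 with the transcript length offset.

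Trim21 followed with an interaction of 0.67 (SE 0.17, edgeR adjusted p = 0.0329), so that 2000 pg IFNγ raised it 1.79-fold without and 2.84-fold with oxaliplatin. That call was lost in 7 of 16 settings, with an adjusted p of 0.111 under DESeq2 and 0.113 by edgeR without IFN2000 replicate 2. Trim2 passed narrowly at 0.32 (SE 0.08, edgeR adjusted p = 0.0477). It was lost in 12 of 16 settings and fell to 0.16 with the transcript length offset (edgeR adjusted p = 0.286). On the CPM scale, the Combo2000 libraries were above the sum of the separate changes for 19 of the 35 members, around it for 7 and below it for 9. The same count was not made over all genes, and the sum was taken without its error. No excess in the family can be read from these counts.

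The drug effect could be read a second time in libraries that share none with the first, by setting the combination against IFNγ alone. Combo200 differed from IFN200 for 27 of 34 members, 23 higher and 4 lower, where 69.9% of all genes were called. Combo2000 differed from IFN2000 for 27, 22 higher and 5 lower, where 72.3% were called. Trim12c and Trim63, members only through the combination libraries, were among those higher at each dose. Of the 25 members called in Oxali against Ctrl, 23 were called in each of these comparisons, all in the same direction, which is 92% of the first list and 85.2% of the second. For all genes tested the shares at the high dose were 90.4% and 84.6%. Trim10 and Trim7 rose again with log2 changes of 1.19 and 0.93 on top of IFN2000, and Trim28 and Trim65 fell again with -0.50 and -0.36. Leaving out IFN200 replicate 1 gave 24 calls in the first, with Trim3, Trim14 and Trim41 lost. Leaving out IFN2000 replicate 2 gave 25 in the second, with Trim13, Trim36 and Trim41 lost and Trim17 gained.

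The IFNγ effect was read the same way at 2000 pg. Both comparisons set libraries with replicate numbers 2 and 3 against libraries numbered 1 and 2. IFN2000 against Ctrl called 8 members and Combo2000 against Oxali called 5, with 3 in common, which is 37.5% of the first list and 60% of the second. For all genes tested 257 were in common, 11.6% and 44.8% of the lists. Trim21 and Trim25 were higher in both, and Trim56 was lower without the drug and higher with it.

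**Figure D4:**
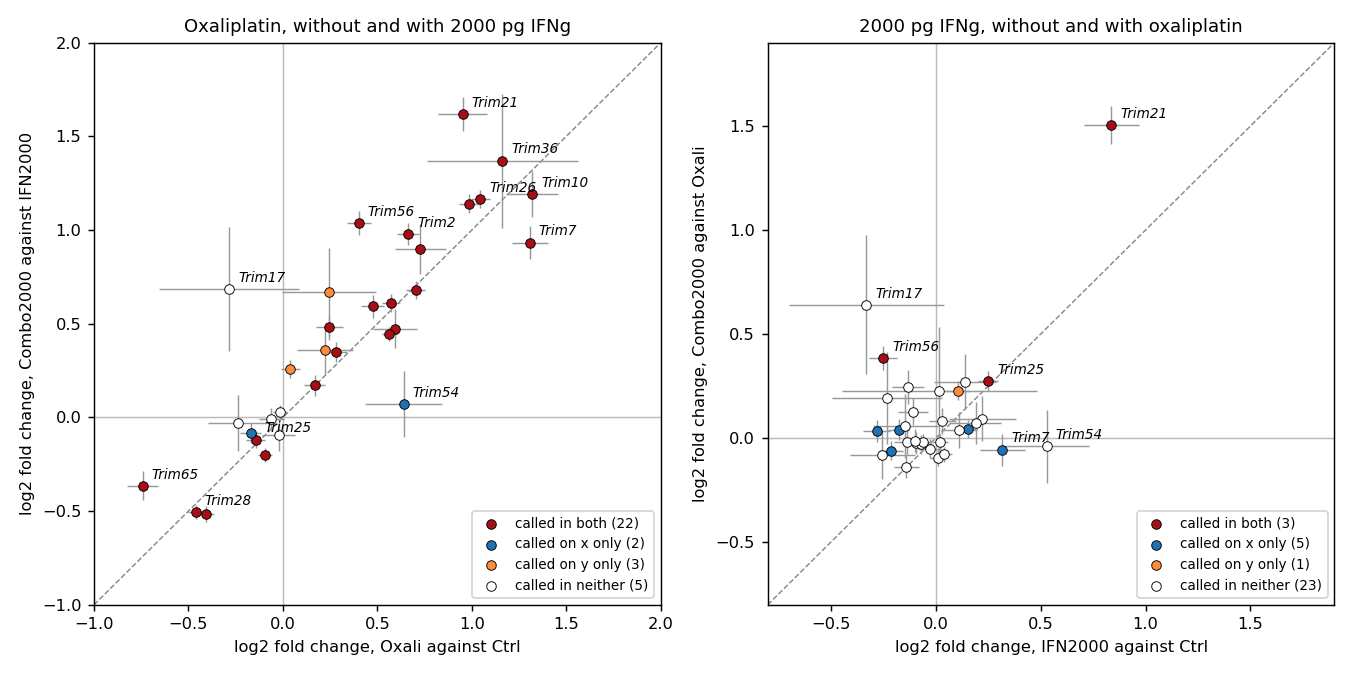
Log2 fold changes with standard errors for 32 TRIM genes, drawn without the low-count Trim12c and Trim63. The left panel sets Combo2000 against IFN2000 (vertical) beside Oxali against Ctrl (horizontal). Points spread along the dashed line of equal change, with Trim21, Trim56 and Trim17 above it and Trim54 below it. The right panel sets Combo2000 against Oxali beside IFN2000 against Ctrl, where most points lie near 0 and Trim21 stands apart at 0.84 and 1.51.

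Against Ctrl the combinations repeated the drug pattern, and these comparisons share their Ctrl libraries with the ones above. Combo200 changed 25 of 34 members, 21 higher and 4 lower (68.7% of all genes), and Combo2000 changed 26, 21 higher and 5 lower (69.2% of all genes). Those higher include Trim12c and Trim63, members only through the combination libraries. Trim13, an endoplasmic reticulum ligase, had 3.892 and 4.001 CPM in Ctrl and 4.28 and 4.96 CPM with the drug. With IFNγ added it stood at 5.58 and 6.06 CPM at the low dose and 5.55 and 5.60 CPM at the high dose. It was called higher in both combinations (log2 0.56 and 0.50, SE 0.14 each) and not in Oxali, where its change was 0.22 (SE 0.15), and neither combination was called against Oxali.

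The members were also grouped by structure and role, and the counts with oxaliplatin stand beside 67.6% of all genes called. Of the 4 chromatin members of the TIF1 group, 3 were tested, and oxaliplatin lowered Trim28 without a call for Trim24, a nuclear receptor cofactor (152 and 156 CPM in Ctrl, 153 and 152 in Oxali), or Trim33, a ligase in SMAD signalling (94.6 and 99.2 CPM, then 95.8 and 104). Trim24 was called in none of the 11 comparisons. All 4 tested members of the group with NHL repeats or a filamin domain passed with oxaliplatin, with Trim2, Trim3 and Trim45 higher and Trim32 lower, the last a call lost in 4 of 12 settings.

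The 4 tested microtubule-linked members with a COS box, Trim36, Trim46, Trim54 and Trim63, were each higher with oxaliplatin, with a median log2 change of 0.90. Trim63 was a member only through libraries that received the drug with IFNγ. Trim46, which organises microtubules at the axon's start, went from 20.4 and 20.2 to 24.1 and 24.0 CPM (log2 0.25, SE 0.07). It shares 239 exon bases with Krtcap2 on the opposite strand, whose mean was 2317 counts. Among the 11 tested members of the largest group, H2 region genes and relatives that mostly end in a PRYSPRY domain, oxaliplatin raised 5 and lowered 2, and 4 did not pass. Trim8, Trim23 and Trim44 rose and Trim37 fell among the 4 tested members of other structure. Trim11, Trim39 and Trim68 were called, like Trim24, in none of the 11 comparisons. Across all 12 libraries Trim11 ranged from 27.2 to 33.1 CPM, Trim39 from 16.7 to 20.7 CPM and Trim68 from 4.05 to 6.06 CPM. Trim17, with 7 to 24 counts, was called in 1 comparison, higher in Combo200 than in IFN200 (log2 1.05, SE 0.37). That call was lost under DESeq2 and without IFN200 replicate 2 or either Combo200 library, and its exons share 708 bases with the histone gene Hist3h2a on the same strand.

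Members that lie side by side in the genome did not always move together. Trim26 (chr17:36837134-36859398) and Trim10 (chr17:36869574-36877833) flank Trim15, which was below the count rule, and both rose with oxaliplatin, by 1.05 and 1.32. Trim47 and Trim65 overlap on the minus strand (chr11:116105752-116127210 and chr11:116121846-116131128) and share 225 exon bases. Trim47 rose by 0.59 (SE 0.12) and Trim65 fell by 0.74. Trim41 and Trim7 (chr11:48806404-48817353 and chr11:48826140-48852209) are 8.79 kilobases apart and rose by 0.17 and 1.31. The call of Trim41 was lost in some settings, and it shares 31 exon bases with Rack1 on the opposite strand (mean 49889.67 counts). Trim12c (chr7:104338754-104353362) was the 1 member above the rule in a chromosome 7 cluster with Trim5, Trim6, Trim12a, Trim30a to Trim30d, Trim34a and Trim34b. Coordinates are those of GRCm38 in GENCODE release M21.

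Promoter sequence is shown for the 5 genes that rose when 2000 pg IFNγ was added to oxaliplatin, because interferons act through 2 known DNA elements, the interferon-stimulated response element and the gamma-activated site. Each line gives the 250 bases before the RefSeq start site, 5′ to 3′ on the gene's strand, in build GRCm38.p6, with matches to the first element in capitals, searched on both strands as GAAA and GAAA with any 2 bases between.
Trim12c, chr7:104353350-104353599, minus strand: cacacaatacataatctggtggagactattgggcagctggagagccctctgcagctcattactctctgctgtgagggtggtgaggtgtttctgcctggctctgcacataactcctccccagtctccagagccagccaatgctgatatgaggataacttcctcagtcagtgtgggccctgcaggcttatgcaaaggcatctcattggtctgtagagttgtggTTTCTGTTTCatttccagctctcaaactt
Trim26, chr17:36836896-36837145, plus strand: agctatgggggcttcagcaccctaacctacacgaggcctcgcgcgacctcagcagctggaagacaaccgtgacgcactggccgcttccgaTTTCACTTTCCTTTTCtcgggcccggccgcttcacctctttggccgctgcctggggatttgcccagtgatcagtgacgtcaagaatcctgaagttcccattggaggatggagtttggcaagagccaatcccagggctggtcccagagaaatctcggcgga
Trim21, chr7:102565483-102565732, minus strand: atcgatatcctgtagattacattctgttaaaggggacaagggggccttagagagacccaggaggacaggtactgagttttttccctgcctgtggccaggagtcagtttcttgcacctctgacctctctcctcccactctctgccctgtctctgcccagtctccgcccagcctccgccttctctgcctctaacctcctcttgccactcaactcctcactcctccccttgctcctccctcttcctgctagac
Trim56, chr5:137116208-137116457, minus strand: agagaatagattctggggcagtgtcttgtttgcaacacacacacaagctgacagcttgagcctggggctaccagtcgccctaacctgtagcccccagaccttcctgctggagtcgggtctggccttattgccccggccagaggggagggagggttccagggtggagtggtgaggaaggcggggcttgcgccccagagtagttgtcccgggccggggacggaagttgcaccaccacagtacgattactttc
Trim25, chr11:88999153-88999402, plus strand: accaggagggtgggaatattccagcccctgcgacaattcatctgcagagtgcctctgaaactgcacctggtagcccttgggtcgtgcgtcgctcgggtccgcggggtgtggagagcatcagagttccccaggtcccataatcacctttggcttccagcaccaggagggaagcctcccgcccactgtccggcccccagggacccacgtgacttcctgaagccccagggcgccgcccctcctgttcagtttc
The first pattern stood in the windows of Trim12c, starting 29 bases before the start site, and Trim26, where matches at 160 and 154 bases before it overlap. Among all 32851 promoter windows 2.98% held it, and among the members' 37 windows, from the 26 members with an entry, 2 did. The second pattern, TTC and GAA with any 3 bases between, was found in 7.02% of all windows and in 2 of the members' windows, those of Trim45 and Trim46. Trim21, Trim56 and Trim25 had neither string in this window.

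Genes for the enzymes around the ligases were read beside them. Of 17 genes for ubiquitin and ISG15 partners, 16 were tested, and oxaliplatin raised 8 and lowered 4, a share of 75% beside 67.6% of all genes. Uba1, the main activating enzyme for ubiquitin, fell (log2 -0.57, SE 0.04), as did Ube2n, the conjugating enzyme for lysine-63 chains (-0.73, SE 0.05). Uba7, which activates ISG15, rose from 2.61 and 2.43 CPM in Ctrl to 6.58 and 7.53 CPM in Oxali and 19.8 and 20.2 CPM in Combo2000. Combo2000 exceeded Oxali for 5 of the 16, namely Uba7, Ube2l6, Isg15, Usp18 and Herc6, and for the last 4 named the log2 changes were 1.41, 1.05, 1.36 and 1.18. Of all genes tested, 4.36% were called in this comparison, 3.37% higher. These are the genes of the ISG15 system, from activation through conjugation to removal. At 2000 pg the interaction was called for Ube2l6 and Herc6 (1.04 each). Among TRIM proteins with another symbol, Pml, Mid1 and Mefv were higher in Oxali than in Ctrl, by log2 values of 0.29, 0.49 and 2.42, and Combo2000 was called against Oxali for none of these 3 (for Pml 0.22, edgeR adjusted p = 0.0502, the 1 of the 3 with an unadjusted p under 0.05).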

How the data were processed

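Poly(A) RNA libraries from a stranded kit were made from Myc-CaP cells in 6 groups of 2. The table deposited by the authors holds whole-number counts per gene symbol, and per the labels and the submitters' processing notes the reads were handled with STAR 2.7.3a and RSEM 1.3.0 on GRCm38. The methods of the study instead name featureCounts as the counting step after STAR, so that the sources differ on the tool behind the whole counts, and strand use is not given in the sources used here. Titles set the groups, since agent labels conflicted for 6 libraries. All 12 libraries entered 1 edgeR 4.0.16 quasi-likelihood fit (R 4.3.3, TMM scaling, filterByExpr with a minimum count of 10 and total of 15, group means, 11 contrasts). Calls had a Benjamini-Hochberg adjusted p under 0.05 over the 13177 genes of a contrast. With 2 against 2 libraries an exact permutation test cannot go below p = 0.333, so none is given. CPM are TMM-normalised, per kilobase over the union of exons in GENCODE M21. Floors of 3 counts per library cover counting error only.

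The members, gene lists and tests were chosen with earlier results of these data known. Trim12c, Trim62 and Trim63 met the count rule only through combination libraries, so their higher counts there are not independent of it. Genes described in full were the interferon-linked members, the 4 largest rises and 4 largest falls in Oxali, IFN2000 and Combo2000 against Ctrl without overlap between libraries, interaction calls, TIF1 members and the highest member per length; others that appear were named for their group, position or count. Alternatives were RLE and upper-quartile scaling, DESeq2 1.42.0, no filter, a mean of at least 50 counts, only the groups compared, a replicate block, a transcript length offset and leaving out each library. The steps were tested on simulated data. Promoter windows came from RefSeq, and 26 of 35 members had an entry. Some marker genes are not reported here.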

Additional observations from a re-analysis of the deposited data

Results flagged for a closer look

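At 2000 pg the IFNγ effect differed between cells without and with oxaliplatin, by the interaction test of edgeR's quasi-likelihood fit with Benjamini-Hochberg adjustment, for 3 members. The interaction was 0.64 on the log2 scale for Trim56 (SE 0.09, adjusted p = 2.94e-04), with IFN2000 below Ctrl in both libraries and Combo2000 above Oxali in both. For Trim21 it was 0.67 (SE 0.17, adjusted p = 0.0329), with both libraries higher after IFNγ in either setting. For Trim2 it was 0.32 (SE 0.08, adjusted p = 0.0477), with both IFN2000 libraries below Ctrl and the Combo2000 libraries on either side of those of Oxali. Only the Trim56 call held under all 16 alternative settings. That of Trim21 was lost in 7 of them and that of Trim2 in 12.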

How the results depend on the processing

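The genes described in full had 95 calls. None of the 1135 alternative values of these calls turned direction, and 98 lost their call. Calls of other members named above, such as Trim54, Trim17 and Trim41, are not among the 95. Of the 172 alternative counts 150 were within 1.5 times the value given. The count for IFN2000 against Ctrl (8) became 5 under DESeq2, where Trim7, Trim33 and Trim44 were lost, and lay between 2 and 7 when a library was left out. The 2000 pg interaction (3) gave 1 under DESeq2, 1 with only the groups compared, 5 without a filter on low counts, where Trim33 and Trim65 were gained, and 1 to 4 with a library left out. Members called in all 3 comparisons at 2000 pg (5) became 3 under DESeq2 and 3 to 5 with a library left out, lowest without Combo2000 replicate 2. At 200 pg that count (2) and Combo200 against Oxali (2) both lay between 1 and 2. Where a group was left with 1 library, it was assumed to vary like the others.

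Ctrl, IFN200 and Oxali carried replicate numbers 1 and 2, and IFN2000, Combo200 and Combo2000 carried 2 and 3. Within these sets, same-numbered libraries deviated together with correlations of -0.319 to 0.105. The labels do not say what the numbers stand for. In comparisons across the sets, the main fit did not separate a difference tied to the numbers from the treatment. With 2 libraries per group, each value compares a single difference per group. It cannot settle whether the numbers pair the libraries, and the main fit used no pairing. A fit with the replicate number as a block called 2 members in IFN2000 against Ctrl, 1 in Combo200 against Oxali and 1 in all 3 comparisons at 200 pg, and 2 in the 2000 pg interaction.

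Depth limits Trim12c, Trim63, Trim36, Trim14 and Trim17, and the 33 symbols below the count rule were not tested. Upper-quartile scaling put the median log2 change of all genes at 0.0697 or less in every comparison.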
